A study of Homo sapiens with 9 samples.

Results

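SNORD116-14, SNORD116-15, SNORD116-20, SNORD116-21 and SNORD116-24 are 5 copies of the imprinted SNORD116 small nucleolar RNA family that have an array probe of their own, among 19460 probes with a single gene symbol and 33297 probes in all. They were chosen by measured values, their signal being high in untreated cells and lower, step by step, on SCR and SID replicates 1 and 2, so these values are given below as a description and without a test. The cells were MDA-MB-231, an established line from a human triple negative breast cancer, which received SID peptide at 2.5 μM for 24 hours, the scrambled control peptide SCR, or no peptide (UT). SID copies the SIN3 interaction domain and acts as a decoy for a binding pocket of the corepressor SIN3A. The methods give the same dose and time for SCR, for which the labels state no dose, and no engineered allele is named in any group. A column heading of the study gives a longer time for SCR replicate 3, where the labels give 24 hours for all arrays. Total RNA of each sample was labelled and hybridized to 1 human gene array, 3 arrays per group and 9 in all, and the table holds log2 signals.

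C/D box small nucleolar RNAs are short stable RNAs that sit in a ribonucleoprotein with the methyltransferase fibrillarin and usually guide the methylation of ribosomal RNA, although SNORD116 has no known ribosomal target. Its many near-identical copies lie in tandem in the introns of one long host transcript on chromosome 15, which starts at the SNURF-SNRPN promoter and is made from the paternal copy alone, the maternal promoter being methylated. Loss of the paternal cluster is the core lesion of Prader-Willi syndrome, and the RNAs are best known from neurons. An array signal over such a copy does not tell the mature small RNA from the host intron around it, and probes for near-identical copies can take up RNA of each other.

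The promoter of the host transcript is shown because every copy is transcribed from it and its own gene pair is measured on these arrays. The 250 bases before the first base of SNURF, at chr15:24954737-24954986 on the plus strand of RefSeq build GRCh38.p14, read as follows, with CG dinucleotides (the sites of the imprint's methylation) in capitals.
SNURF promoter: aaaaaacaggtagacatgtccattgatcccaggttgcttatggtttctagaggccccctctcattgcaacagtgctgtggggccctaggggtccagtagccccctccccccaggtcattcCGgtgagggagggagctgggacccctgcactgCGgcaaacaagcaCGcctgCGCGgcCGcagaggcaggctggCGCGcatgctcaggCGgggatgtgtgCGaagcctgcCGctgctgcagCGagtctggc
It holds 12 CG dinucleotides, against a median of 11 over 34943 RefSeq windows of the same length, and 48.4% of the windows hold at least as many. The letters GCGCATGC, the core of the motif of the transcription factor NRF1, were searched on both strands as this run and its complement GCATGCGC, and occur once, starting 56 bases before the transcript, while 2.6% of all windows hold them. These matches describe the sequence only, since no binding or methylation was measured here. None of the 29 SNORD116 symbols has a window in that table.

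SID and SCR replicates 1 and 2 stood apart from replicate 3 of both peptide groups and from the UT arrays over all probes, and the members' values have to be read with this. The first principal component of the 9 arrays held 78.5% of the variance. Across probes, the correlation was 0.996 between SID and SCR replicate 3, 0.913 between SID replicates 1 and 3 and 0.927 between SCR replicates 1 and 3. The sets also differed in genes that mark the cell line, 3 of 7 high markers (AXL, CD44 and CAV1) being called higher by limma in SID and in SCR than in UT when replicate 3 of both was left out, as were 6.93% and 6.58% of all probes. AXL, a receptor kinase of mesenchymal-like breast cancer lines, had a log2 signal of 13.31, 13.28 and 9.96 on SID, 12.95, 13.20 and 9.95 on SCR and 10.06, 10.14 and 10.02 on UT replicates 1, 2 and 3. The median of the 7 markers that should be high lay between 12.55 and 13.34 on the 9 arrays, and the median of the 6 that should be low lay between 7.11 and 8.44. FOXA1, a luminal factor and one of the low markers, was at 8.25, 8.42 and 10.01 on SID, 9.14, 9.64 and 9.97 on SCR and 9.89, 9.98 and 10.03 on UT arrays. GATA3, another luminal factor among them, ran the other way, at 8.74, 8.80 and 7.36 on SID, 9.55, 10.05 and 7.48 on SCR and 7.12, 7.44 and 7.54 on UT arrays. Whether the sets of arrays hold the same cells was not tested, and fewer cells of a type and less RNA per cell cannot be told apart in such bulk samples. Medians of the fibroblast, leukocyte and neuron markers stayed between 6.11 and 7.38, with the leukocyte antigen PTPRC between 4.84 and 5.07. Single markers moved more than these medians. Without replicate 3 of SID and SCR, limma called 1 of 4 fibroblast markers lower in SID than in UT (6.4% of all probes). It likewise called 1 of 4 lower in SCR than in UT (4.82%). The lowest log2 differences among the 4 were -1.10 and -1.66. SNAP25, a synaptic protein and the neuron marker with the widest range, was at 7.17, 7.50 and 9.73 on SID, 7.65, 6.71 and 9.66 on SCR and 9.91, 9.91 and 10.13 on UT arrays, so it split along the same sets of arrays. SYT1, a synaptic vesicle protein, ran the other way, at 6.59, 6.49 and 6.24 on SID, 7.41, 7.24 and 6.22 on SCR and 6.22, 6.26 and 6.32 on UT arrays, and 4 of the 6 neuron probes had a higher mean in SID and in SCR than in UT. The part of these markers in the values below was not tested.

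In replicates 1 and 2 with SID the 5 copies had their lowest signals, in UT cells and in replicate 3 of both peptide groups they had their highest. With SCR replicates 1 and 2, 4 of the 5 lay well in between. SNORD116-14 had log2 signals of 4.93, 4.73 and 12.51 on SID replicates 1, 2 and 3, of 8.80, 10.13 and 13.22 on SCR replicates 1, 2 and 3, and of 13.41, 13.31 and 12.64 on the UT arrays. Its SID and UT arrays did not overlap, while SCR replicate 3 lay among the UT arrays. SNORD116-15 had 6.62, 6.67 and 12.87 on SID, 10.06, 11.28 and 13.79 on SCR and 14.05, 13.85 and 13.20 on UT arrays. It showed the same order, again with no overlap between the SID and UT arrays. SNORD116-20 had 4.83, 5.58 and 11.67 on SID, 8.37, 9.68 and 12.77 on SCR and 13.19, 12.93 and 12.17 on UT arrays. SNORD116-24 had 5.18, 5.22 and 10.71 on SID, 7.99, 9.33 and 12.75 on SCR and 13.17, 12.81 and 11.55 on UT arrays. In all 5 copies SCR replicate 2 lay above SCR replicate 1, and UT replicate 3 was the lowest of the UT arrays.

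SNORD116-21 showed only a small step. Its log2 signals were 4.57, 4.68 and 11.59 on SID, 4.94, 5.35 and 11.50 on SCR and 11.72, 11.60 and 11.52 on UT arrays. SCR replicates 1 and 2 were thus within 1 log2 unit of SID replicates 1 and 2, SID minus SCR being -0.37 and -0.66. These signals lay near the low end of the scale, where a difference can be understated. SID replicate 3 lay among the UT arrays, and the UT arrays spanned a narrower range than those of the other 4 copies.

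**Figure D1:**
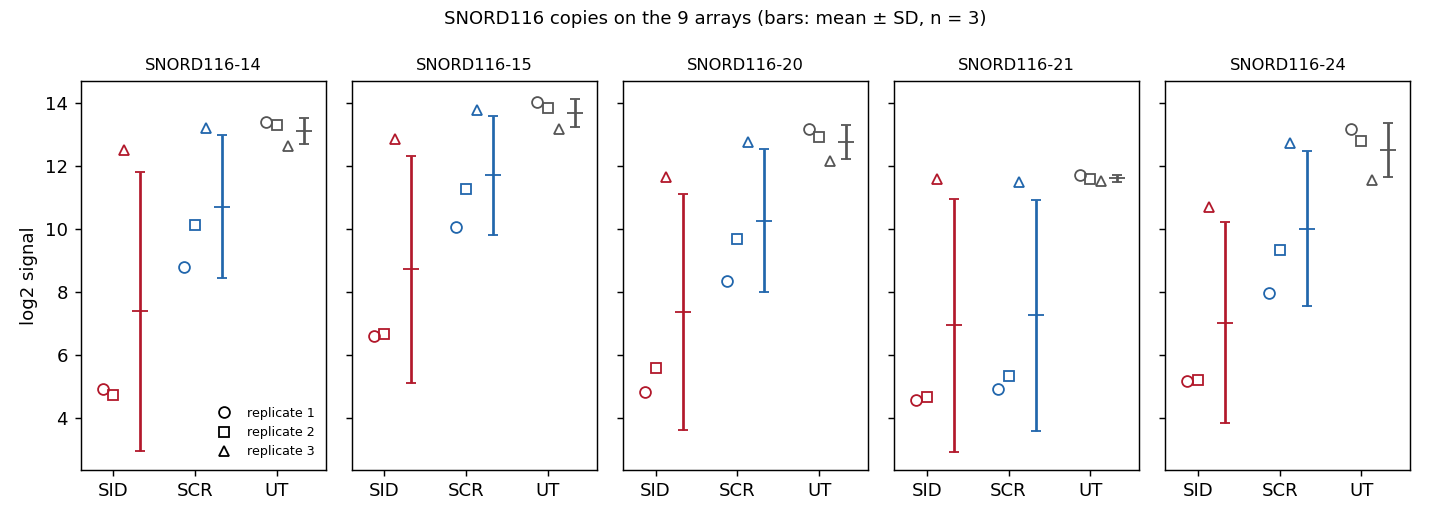
Log2 signal (vertical axis) of the 5 SNORD116 copies on the SID, SCR and UT arrays (horizontal axis), with 1 point per array, the symbol giving the replicate and the bar the mean ± SD of 3 arrays. SID replicates 1 and 2 lie between 4.57 and 6.67, and replicate 3 of SID and SCR lies near the UT arrays, which run from 11.52 to 14.05.

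As group means over 3 arrays, SNORD116-14 was at 7.39 ± 4.43 in SID, 10.72 ± 2.27 in SCR and 13.12 ± 0.42 in UT cells (log2, SD, n = 3 each). SNORD116-21 was at 6.95 ± 4.02 in SID, 7.26 ± 3.68 in SCR and 11.61 ± 0.10 in UT cells (log2, SD, n = 3 each). The SD of SID lay between 3.18 and 4.43 for the 5 copies, that of SCR between 1.90 and 3.68 and that of UT between 0.10 and 0.85. The wide spread in the peptide groups is the gap between replicates 1 and 2 and replicate 3.

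The difference SID minus SCR was -3.33 for SNORD116-14, -2.99 for SNORD116-15, -2.91 for SNORD116-20, -0.32 for SNORD116-21 and -2.98 for SNORD116-24 on the log2 scale. SID minus UT ran from -5.73 for SNORD116-14 to -4.66 for SNORD116-21, and SCR minus UT from -4.35 for SNORD116-21 to -1.99 for SNORD116-15. The medians over the 5 copies were -2.98, -5.40 and -2.49 in this order of contrasts, beside medians of 0.02, 0.02 and 0.01 over all 19460 probes. By the mean of all arrays, 4 of 5 copies lay over 1 log2 unit below SCR in SID, as did 1.07% of all tested probes, and all 5 lay that far below UT in SID (3.13% of all probes) and in SCR (2.66%). Every SID array lay below every UT array for 4 of 5 copies, SNORD116-21 being the exception, and for 8.05% of all probes. These contrasts chose the copies, so the shares are printed as background and nothing is read from them. SID minus UT and SCR minus UT share the UT arrays.

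Single arrays moved these differences. Without SID replicate 3 the median difference of the 5 copies between SID and SCR was -5.06, without SCR replicate 3 it was -1.66, and without SID replicate 1 or 2 it was -1.94 or -2.00. SCR minus UT was -1.47 without SCR replicate 1 and -3.74 without SCR replicate 3. For SNORD116-21, SID minus SCR was -2.64 without SID replicate 3, -1.48 and -1.27 without SCR replicate 1 or 2, and turned to 1.81 without SCR replicate 3 and to 0.87 and 0.82 without SID replicate 1 or 2. Its direction over the groups thus rested on which single array was kept.

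Taken on replicates 1 and 2 alone, SID lay 7.05 to 8.29 log2 units below the UT mean for SNORD116-14, SNORD116-15, SNORD116-20 and SNORD116-24, and SCR lay 3.03 to 3.85 units below it. For SNORD116-21 the differences were -6.99 for SID and -6.47 for SCR. The SID signals, and for SNORD116-21 the SCR signals too, lay near the low end of the arrays, where log2 differences understate a loss, so no fold is given.

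Between arrays of the same replicate number, SID minus SCR for SNORD116-14 amounted to -3.86, -5.40 and -0.72 in replicates 1, 2 and 3. For SNORD116-24 it was -2.81, -4.11 and -2.03, and for SNORD116-21 it was -0.37, -0.66 and 0.08. The difference was thus larger in replicates 1 and 2 than in replicate 3 for all 5 copies, and SNORD116-24 kept the most of it in replicate 3.

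**Figure D2:**
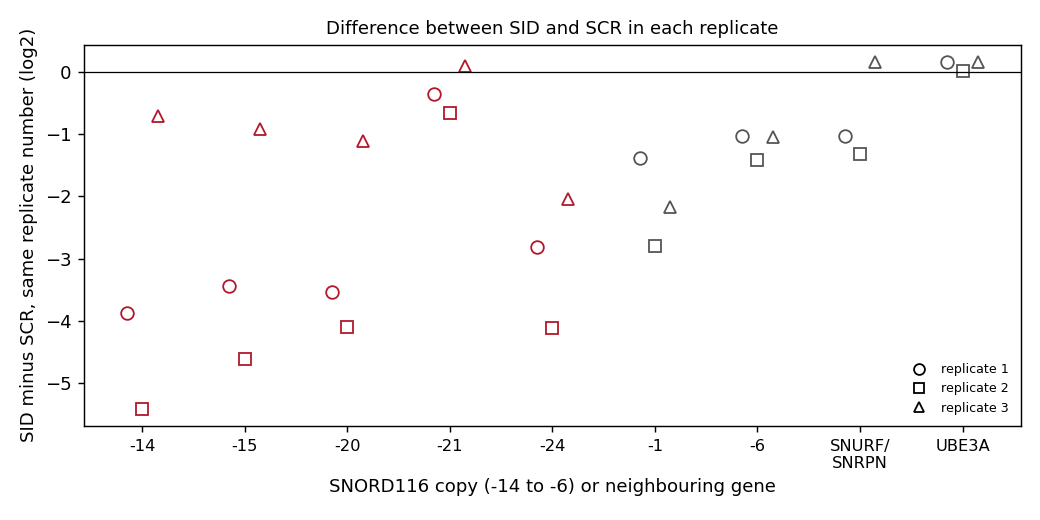
SID minus SCR on the log2 scale (vertical axis) between arrays of the same replicate number, the symbol giving the replicate, for the 5 SNORD116 copies (red) and for SNORD116-1, SNORD116-6, the shared SNURF and SNRPN probe and UBE3A (grey). Replicate 3 lies nearest to 0 for the 5 copies, at -2.03 to 0.08, while for SNORD116-1 it lies between the other replicates.

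In replicate 3, where the arrays of all groups were otherwise much alike, SNORD116 was among the few RNAs that still differed by over 1 log2 unit. SID replicate 3 lay over 1 log2 unit below SCR replicate 3 for 57 of 19460 probes (0.293%), and 9 of the 20 SNORD116 probes with 1 symbol were among them, SNORD116-20 and SNORD116-24 included. The others were mostly short RNAs as well. They were 14 of 69 other C/D box small nucleolar RNAs, 7 of 64 of the H/ACA box class, 4 of 19 small Cajal body RNAs and 18 of 36 other short noncoding RNAs such as spliceosomal, Y and vault RNAs, against 0 of 189 microRNAs and 5 of 19043 probes outside these classes and SNORD115. UT replicate 3 was likewise over 1 log2 unit below the mean of UT replicates 1 and 2 for 26 probes (0.134%), 8 of which were SNORD116 probes, and 23 of the 26 were also among the 57. These counts of other short RNAs moved with SNORD116 between single arrays, while most small nucleolar RNAs outside SNORD116 did not pass this limit, and the part of this in the SNORD116 values was not tested. There is 1 array on each side of this comparison, so it has no replicate check.

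The rest of the family shared the split between the sets of arrays, but mostly not the step between SCR and SID. SNORD116 symbols stand on 29 probes, of which 26 have distinct values, and 20 of the 29 carry 1 symbol. On all 26, SID replicates 1 and 2 and SCR replicates 1 and 2 lay below every UT array and below replicate 3 of both groups, as they did for 15.4% of all tested probes. The mean of SID replicates 1 and 2 lay over 1 log2 unit below UT for 24 of 26 (6.4% of all tested probes), and that of SCR replicates 1 and 2 likewise for 24 of 26 (4.83%). The mean of SID replicates 1 and 2 lay over 1 unit below that of SCR replicates 1 and 2 on 10 of the 26 (3.37% of all tested probes) and within 0.5 units of it on 13. Where SCR was itself near the low end of the scale, a step to SID can be understated or missed. The 10 are 4 of the described copies, SNORD116-1, SNORD116-6 and 4 probes shared between copies. SNORD116-1 had 4.64, 4.55 and 8.60 on SID, 6.03, 7.34 and 10.78 on SCR and 11.30, 10.79 and 9.30 on UT arrays. Its step was smaller than that of SNORD116-24, SID minus SCR by the mean of replicates 1 and 2 being -2.09 against -3.46. SNORD116-26, at the far end of the numbering, had 5.06, 5.07 and 8.64 on SID, 5.21, 5.50 and 9.78 on SCR and 10.49, 9.81 and 9.24 on UT arrays, with SCR close to SID as for SNORD116-21. SNORD116-10 was low and nearly flat, with SID replicates 1 and 2 minus UT at -0.25, and SNORD116-28 lay between 5.02 and 6.36.

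One probe shared by the symbols from SNORD116-14 to SNORD116-22 and SNRPN had 5.39, 5.52 and 12.69 on SID, 9.39, 10.56 and 13.26 on SCR and 13.49, 13.33 and 12.78 on UT arrays, and it includes the symbol of SNORD116-21 although its values follow the stepwise copies. A probe shared by SNORD116-2 and SNORD116-6 was slightly above SCR on the SID arrays of replicates 1 and 2, by 0.20 and 0.18. Which copy a shared probe reports cannot be told.

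The other copies were tested, although their probes can take up RNA of the described copies and are not independent of them. With limma on all 9 arrays, 0 probes of 19460 passed an adjusted p under 0.05 with a log2 difference over 1 in any of the 3 contrasts, where the lowest adjusted p was 0.657 for SID against SCR, 0.388 for SID against UT and 0.332 for SCR against UT. An unadjusted p under 0.05 was reached by 1474, 2432 and 2811 probes in the same order, and of the 15 other SNORD116 copies with a probe of their own by 0, 11 and 1. With replicate 3 of both peptide groups left out, limma called 13 of these 15 lower in SID than in UT (6.4% of all probes lower), 13 of 15 lower in SCR than in UT (4.82%) and 1 of 15, SNORD116-1, lower in SID than in SCR (3.31%, adjusted p = 0.0481 from limma). The 2 copies not called against UT were SNORD116-10 and SNORD116-28. The 5 copies were chosen for low signals on SCR and SID replicates 1 and 2, the peptide arrays kept in that fit. With probes that can share RNA, these calls follow in part from that choice and give no independent support.

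The host transcript's own first genes followed the copies. HERC2 and TUBGCP5 did so by a smaller amount, CYFIP1, MKRN3 and UBE3A by under 1 log2 unit, and most other genes of the region did not. The probe shared by SNURF, the reading frame at the imprinting centre, and SNRPN, which encodes the spliceosomal protein SmN, had 6.81, 7.01 and 11.60 on SID, 7.85, 8.32 and 11.45 on SCR and 11.50, 11.39 and 11.62 on UT arrays. SCR replicates 1 and 2 lay above SID replicates 1 and 2, the difference within replicates 1, 2 and 3 being -1.04, -1.31 and 0.15. Replicate 3 of all 3 groups lay between 11.45 and 11.62, without the lower signal that replicate 3 of SID and UT had for 4 of the 5 copies.

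Noncoding RNAs of the same host transcript fell into the same 2 sets of arrays. The probe shared by SNORD64, a single-copy small nucleolar RNA of the region, and PWAR5, a spliced noncoding RNA, had 4.65, 4.80 and 8.09 on SID, 4.81, 5.05 and 8.73 on SCR and 9.33, 7.80 and 8.55 on UT arrays. PWAR6, another noncoding RNA there, had 4.62, 4.57 and 6.93 on SID, 4.52, 4.60 and 6.80 on SCR and 7.08, 5.88 and 6.69 on UT arrays. The probe shared by the near-identical SNORD109A and SNORD109B had 4.44, 4.62 and 7.70 on SID, 4.80, 4.77 and 8.39 on SCR and 9.17, 8.32 and 8.07 on UT arrays. In these 3 probes SID and SCR replicates 1 and 2 lay within 0.5 units of each other, at a level where a step was not detectable.

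**Figure D3:**
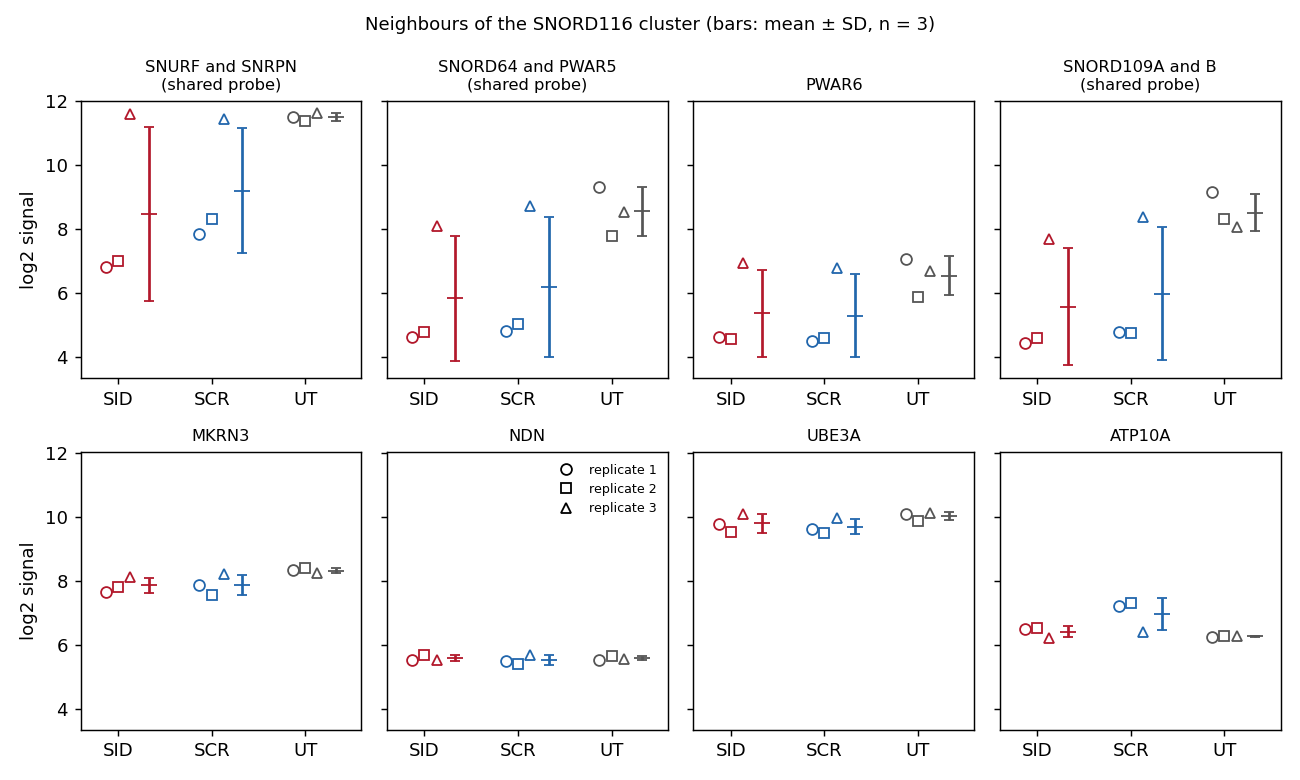
Log2 signal (vertical axis) of 8 probes of the imprinted region on the SID, SCR and UT arrays (horizontal axis), 1 point per array, the symbol giving the replicate and the bar the mean ± SD of 3 arrays. The upper row splits into the same sets of arrays as SNORD116, the shared SNURF and SNRPN probe running from 6.81 to 11.62. UBE3A splits in the same direction within a narrow range, from 9.51 to 10.10.

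The paternally expressed protein genes that lie apart from the host transcript did not split this far. NDN, a growth suppressor of the MAGE family, lay between 5.40 and 5.70 on all arrays, and NPAP1, a nuclear pore associated protein, between 7.17 and 7.59. MAGEL2, a regulator of ubiquitin ligases, was at 7.21, 6.74 and 6.67 on SID, 6.67, 6.72 and 6.78 on SCR and 6.28, 6.87 and 6.45 on UT arrays. MKRN3, a zinc finger ubiquitin ligase, was at 7.67, 7.80 and 8.12 on SID, 7.87, 7.56 and 8.20 on SCR and 8.33, 8.40 and 8.24 on UT arrays. Each of these 4 genes stayed within 1 log2 unit over all arrays, with MKRN3 lower on SID and SCR replicates 1 and 2 than on UT arrays.

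UBE3A, the ubiquitin ligase that the far end of the host transcript silences in neurons, was at 9.76, 9.52 and 10.10 on SID, 9.60, 9.51 and 9.95 on SCR and 10.08, 9.88 and 10.10 on UT arrays. It was slightly lower where SNORD116 was lower, the mean of replicates 1 and 2 minus UT being -0.38 for SID and -0.46 for SCR. ATP10A, a phospholipid flippase next to it, was at 6.49, 6.53 and 6.22 on SID, 7.22, 7.30 and 6.39 on SCR and 6.25, 6.27 and 6.29 on UT arrays, so that it was highest on SCR replicates 1 and 2. HERC2, a ubiquitin ligase at the distal end of the region, had 8.86, 8.18 and 10.31 on SID, 9.23, 9.49 and 10.09 on SCR and 9.95, 9.72 and 10.07 on UT arrays. Probes shared by HERC2 and its pseudogenes split further. By the mean of replicates 1 and 2, they ran from -2.16 to -1.98 for SID minus UT and from -1.10 to -0.94 for SCR minus UT. CYFIP1 was lower as well, at -0.59 for SID and -0.68 for SCR replicates 1 and 2 minus UT.

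Of the 15 probes of the region with 1 symbol outside the small nucleolar RNA families, limma called 0 on all 9 arrays. With replicate 3 of SID and SCR left out, it called 3 lower in SID than in UT (6.4% of all probes), namely PWAR6, TUBGCP5, a γ-tubulin complex subunit, and HERC2, with log2 differences of -1.95, -1.42 and -1.39 (adjusted p = 0.00122, 0.000301 and 0.00101 from limma). PWAR6 alone was called lower in SCR than in UT (4.82% of all probes), and none of the 15 passed between SID and SCR.

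SNORD115, the neighbouring tandem family downstream of SNORD116 in the same host transcript, gave no such pattern. The median log2 signal of its 20 probes with 1 symbol lay between 4.28 and 4.44 on the 9 arrays, and the difference SID minus UT ran from -0.21 to 0.05. At this level a lower signal was not detectable on the arrays. The imprinted small nucleolar RNAs and genes of 14q32, a second such cluster in the genome, were likewise flat, their 10 probes having a median between 5.11 and 5.23.

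The other 69 C/D box small nucleolar RNAs, many of them made from introns of ribosomal protein and translation factor genes, are set beside the family here. Their median was 9.02, 8.81 and 9.05 on SID, 8.58, 8.95 and 9.53 on SCR and 10.14, 9.29 and 9.17 on UT arrays. The median difference over the 69 was -0.10 for SID minus SCR, -0.46 for SID minus UT and -0.38 for SCR minus UT, beside -0.51, -2.86 and -2.12 for the 15 other SNORD116 copies with a probe of their own. The 5 described copies were chosen for their differences and are left out of this comparison. SNORD4A was among the 3 with the largest difference between SID and SCR, with 8.93, 8.30 and 10.79 on SID, 9.74, 9.96 and 10.86 on SCR and 10.90, 10.24 and 10.79 on UT arrays. SNORD58A ran the other way in replicates 1 and 2, with 9.02, 9.02 and 7.52 on SID, 7.05, 7.86 and 7.86 on SCR and 8.99, 7.66 and 7.18 on UT arrays.

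Of these 69, limma called 0 on all 9 arrays, and without replicate 3 of SID and SCR it called 13 lower in SID than in UT (6.4% of all probes), 12 lower in SCR than in UT (4.82%) and 2 lower in SID than in SCR (3.31%), the last being no more than the background share. Of 64 H/ACA box RNAs, which guide pseudouridylation, it called 3, 6 and 0 lower in the same contrasts, and 2 higher in SID than in SCR (1.95% of all probes). The 10 host genes of other small nucleolar RNAs, such as NCL (nucleolin), had a median between 12.38 and 12.86 on every array, and 0 of them were called in either fit.

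**Figure D4:**
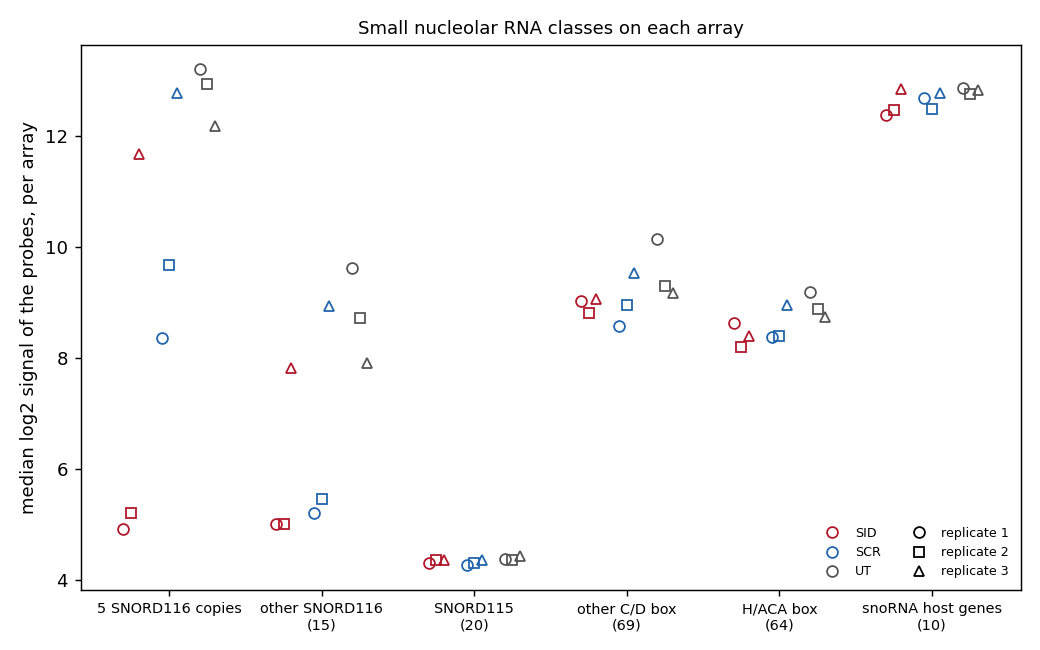
Median log2 signal (vertical axis) on each array of the 5 SNORD116 copies, 15 other SNORD116 probes, 20 SNORD115 probes, 69 other C/D box probes, 64 H/ACA box probes and 10 host genes (horizontal axis), the colour giving the group and the symbol the replicate. The 5 copies run from 4.93 on SID replicate 1 to 13.19 on UT replicate 1, while the SNORD115 median stays between 4.28 and 4.44.

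Proteins that hold, assemble or process C/D box RNAs were looked at beside the copies. FBL, fibrillarin, lay between 12.61 and 12.79 on all arrays. NOP58, a core protein of the C/D box particle, had 10.57, 10.27 and 11.94 on SID, 11.51, 11.34 and 11.74 on SCR and 11.58, 11.44 and 11.61 on UT arrays. RUVBL1, an ATPase of particle assembly, had 10.57, 10.27 and 12.20 on SID, 11.28, 11.29 and 12.10 on SCR and 12.00, 11.76 and 12.06 on UT arrays. Both were thus lowest on SID replicates 1 and 2, by a smaller step than the copies.

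DBR1, the enzyme that opens intron lariats from which these RNAs are released, had 7.96, 7.65 and 9.06 on SID, 8.55, 8.67 and 8.97 on SCR and 9.09, 8.84 and 9.0 on UT arrays. In the 10 genes of the C/D box particle and its assembly, NOP58 and RUVBL1 were called lower in SID than in UT by limma without replicate 3 of SID and SCR (6.4% of all probes), and in the 11 genes of intron release and nuclear RNA decay 3 were. None of these genes passed on all 9 arrays.

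Factors that keep imprints were also read. UHRF1, which brings the maintenance DNA methyltransferase to replicated DNA, was at 10.69, 10.03 and 11.73 on SID, 11.70, 11.86 and 11.51 on SCR and 11.20, 11.28 and 11.38 on UT arrays. It was 1 of 12 such genes called lower in SID than in SCR by limma without replicate 3 of both groups (3.31% of all probes), and 0 of the 12 were called in either peptide group against UT. DNMT1, that methyltransferase, was at 11.37, 11.08 and 11.84 on SID, 11.95, 12.13 and 11.62 on SCR and 11.56, 11.46 and 11.61 on UT arrays. The SCR signals of UHRF1 and DNMT1 in replicates 1 and 2 lay above UT, where those of the SNORD116 copies lay below it. The list as a whole did not share this. Over the 12 genes, SCR minus UT without replicate 3 had a median of 0.02 and ran from -0.60 to 0.51.

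Many other genes shared the profile of the copies. Over 9 arrays, which fall into the sets named above, 345 of 18410 genes (1.87%) had a Pearson correlation above 0.95 with the mean profile of the 5 copies, which is a description with no test. The 10 closest were KLHL9, GDA, SLC27A2, EPGN, SNTB1, PTGFRN, H2BC9, SULF2, HOXC10 and H4C9, with correlations from 0.993 to 0.989. None of them lies on chromosome 15 apart from SLC27A2, an acyl-CoA synthetase of very long chain fatty acids. GDA, guanine deaminase, had 5.55, 6.23 and 11.46 on SID, 8.46, 9.13 and 11.68 on SCR and 12.00, 11.69 and 11.87 on UT arrays. It had the step between SCR and SID in replicates 1 and 2, while replicate 3 of SID and UT was not lowered as in SNORD116-24.

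The 5 genes with the most opposite profile were IFI27, FNIP1, GPX7, CPOX and RNF149, with correlations from -0.995 to -0.989 over the 9 arrays. IFI27, an interferon-induced mitochondrial protein, had 10.56, 10.52 and 7.22 on SID, 9.13, 8.81 and 7.19 on SCR and 7.09, 7.25 and 7.29 on UT arrays. It was highest where the 5 copies were lowest, with SCR in between.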

How the data were processed

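Total RNA of MDA-MB-231 cells was measured on 9 Affymetrix human gene arrays (SID, SCR and UT, 3 each). The deposited values are log2 signals per probe set, for which the authors' notes name Affymetrix Expression Console, RMA and Transcriptome Analysis Console without settings or versions. The log2 scale was read from the values, which run from 3.75 to 14.94. The genome build of the probe sets is not given in the sources used here. The table has no detection calls, and the number of arrays limits the precision.

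Of 33297 probes, 19460 had 1 gene symbol in the platform annotation, 1754 several and 12083 none. Group means were compared with limma 3.58.1 (lmFit, eBayes) in R 4.3.3 on all arrays. A call needed a Benjamini-Hochberg adjusted p under 0.05 over all 19460 probes and a log2 difference over 1. The procedure was tested on simulated data. The members and lists were chosen with earlier results of these data known. Only a part of the SNORD116 and 15q11-q13 probes is named. Of other lists, some of those with the largest differences between SID and SCR or the highest signals are named. Also named are the 10 most and 5 least alike profiles, each gene by its probe with the highest mean.

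Deviations from the group means correlated between SID and SCR at 0.77, 0.57 and 0.79 in replicates 1, 2 and 3. The gap between replicates 1 and 2 and replicate 3 in both groups enters these values. Arrays with unlike numbers were not compared, so whether the numbers pair single cultures was not tested. Between the peptide groups and UT the correlations ran from -0.07 to 0.21. The methods speak of 2 independent biological replicates, while the series holds 3 arrays per group and the labels do not say which are separate cultures, so p-values measure the spread between these arrays. Alternatives were quantile normalization, centring, other probe filters, array weights, a replicate block, leaving out arrays, and the methods' t-test. The ChipInspector analysis of single probes and the other assays of the study were not repeated. Promoter sequence came from RefSeq (GRCh38.p14), and figures were drawn with matplotlib 3.10.9 in Python 3.11.15.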

Additional observations from a re-analysis of the deposited data

How the results depend on the processing

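The call of no probe on all 9 arrays held under quantile normalization, centring, all probes, a mean log2 signal above 6, the arrays of the 2 groups alone and the methods' t-test. A replicate block also gave 0 calls in each of the 3 contrasts. Array weights gave 761 calls for SID against SCR, 2389 for SID against UT and 2116 for SCR against UT, and leaving out replicate 3 of SCR and SID together gave 1024, 2593 and 2217. Leaving out single arrays gave 0 to 648 calls for SID against SCR (648 without SID replicate 3, 223 without SCR replicate 3), 0 to 1946 for SID against UT (without SID replicate 3) and 0 to 1071 for SCR against UT (without SCR replicate 3). The cause was not tested.

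The median difference of the 5 SNORD116 copies kept its sign throughout, running over single arrays left out from -5.06 to -1.66 for SID minus SCR, from -7.31 to -4.14 for SID minus UT and from -3.74 to -1.47 for SCR minus UT. The copies were chosen for these differences, so the kept sign follows in part from the choice and is a description. Over all SNORD116 probes, 751 of 780 differences under an alternative kept their sign and 29 turned, of which 3 belong to SNORD116-21. Low signals lie near the floor of the arrays, where a further loss can be understated or missed, and the cause of the gap between the sets of arrays was not tested.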
